A study of Danio rerio with 14 samples.

Results

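The Janus kinases (JAKs) and the signal transducers and activators of transcription (STATs) were followed in hearts of adult zebrafish that overexpress the cytokine *il11a* (*il11a*OE). The members are 5 JAK genes (*jak1*, *jak2a*, *jak2b*, *jak3* and *tyk2*) and 3 STAT genes (*stat2*, *stat3* and *stat6*). They were taken by symbol and matched to the Ensembl gene IDs of the count tables through gene names. All 8 found a match among 32520 genes, and no exon of a member overlapped an exon of another gene.

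JAKs are tyrosine kinases that sit on the inner tails of cytokine receptors. When a cytokine brings its receptor chains together, the kinases are switched on and phosphorylate both the receptor and the STATs that dock on it. Phosphorylated STATs pair up, enter the nucleus and turn on genes, among them the SOCS genes, whose products shut the pathway down again. Il11 acts through its own alpha receptor and the shared chain Il6st (gp130), which in mammals uses JAK1, JAK2 and TYK2 and mainly STAT3. JAK3 works with the common gamma chain of interleukin receptors on leukocytes, STAT2 with type I interferons, and STAT6 with IL-4 and IL-13. Zebrafish carry duplicate copies of JAK2. RNA levels, which are what was measured here, do not show whether a kinase or a STAT was phosphorylated.

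RNA-seq was done on uninjured hearts at 7 days (7 dpt) and 7 months (7 mpt) after treatment, and each group had 3 libraries at the early and 4 at the late time point. The study's results text calls the 7 dpt material ventricles and the 7 mpt material hearts. Its methods and the sample labels say hearts for both. The *il11a*OE fish carried an *actb2* cassette in which a floxed TagBFP-STOP blocks *il11a*, and the *cmlc2*:CreER driver, active in cardiomyocytes (CMs), removes the STOP after tamoxifen. Control fish were littermates without CreER, and both groups were bathed in 5 µM tamoxifen for 24 hours. The study's methods give the EK strain and an age of 6 months to 1 year at treatment. Its reporting summary names EK or AB and lists ages by figure that partly differ from this range. The study's methods describe replicate pools of hearts, 3 per group, although there were 4 libraries per group at 7 mpt. As control fish lacked CreER, an effect of CreER itself cannot be told apart from that of *il11a*. The counts do not separate transgenic from endogenous *il11a* transcripts.

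Libraries held 61691132 to 80703699 counts at 7 dpt and 73275884 to 130058630 at 7 mpt. At 7 dpt read pairs were counted and at 7 mpt each mate was. A doubling of every count by itself leaves CPM values (counts scaled to a common library size) unchanged. Controls of the time points also differed strongly for some genes, such as *stat3* (83.5 to 88.0 CPM at 7 dpt against 7.96 to 15.5 at 7 mpt). The libraries may have been handled separately, and CPM values are compared only within a time point. In controls the label check *il11a* stood at 41.6 to 53.7 CPM at 7 dpt and 41.0 to 90.5 CPM at 7 mpt, and in *il11a*OE at 325 to 386 CPM and 262 to 433 CPM. The groups did not overlap (log2 fold change 2.92 ± 0.13 (SE), adjusted p = 5.26e-05, and 2.49 ± 0.29, adjusted p = 0.000309, edgeR). The summed cardiomyocyte markers (5 genes) were high in every library and lower in *il11a*OE. The sums were 28434 to 34204 CPM against 47615 to 55451 CPM in controls at 7 dpt. At 7 mpt they were 16105 to 29025 CPM against 46011 to 65657 CPM. Taken singly, 1 of the 5 was called higher and 4 lower at 7 dpt, and 0 higher and 4 lower at 7 mpt. Control replicate 2 at 7 mpt held the highest level of *jak2a* and of *stat2* among the controls of its group, and values without it are given beside both results.

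At 7 dpt, 4 of the 8 members were higher in *il11a*OE (*jak1*, *jak3*, *tyk2* and *stat3*) and 1 was lower (*jak2a*) at an adjusted p under 0.05, the threshold used throughout (quasi-likelihood test of edgeR, adjusted over all genes tested). Over all 19647 genes tested, 37.2% passed, 20.2% higher and 17.1% lower. At 7 mpt, 4 members were higher (*jak1*, *jak3*, *tyk2* and *stat3*) and 0 were lower, where 26.4% of 18689 genes passed, 14.2% higher and 12.2% lower. No member was lower at 7 mpt at an unadjusted p under 0.05 either, where 3185 of the 18689 genes were. DESeq2 and limma-voom also gave 0 lower members after adjustment. The median log2 fold change of the members was 0.28 at 7 dpt and 0.81 at 7 mpt, against 0.02 and 0.03 over all genes. In bulk hearts, a change in the number of cells of a type and a change in the RNA of each cell cannot be told apart. Leaving out single libraries left 3 or 4 members higher at 7 dpt, and *jak1*, *jak3* and *stat3* were the members called in every alternative at both time points.

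**Figure D1:**
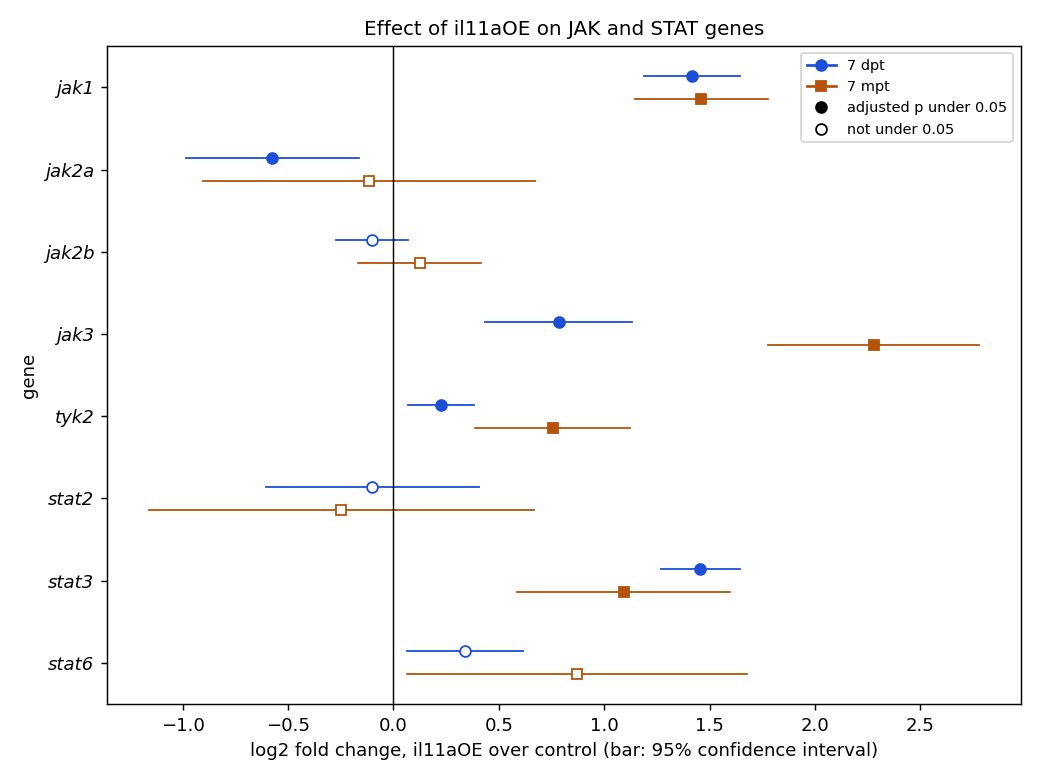
Log2 fold change of *il11a*OE over control for the 8 JAK and STAT genes at 7 dpt (circles) and 7 mpt (squares), with 95% confidence intervals from edgeR and filled symbols where the adjusted p was under 0.05. *jak1* and *stat3* rose by over 1 log2 unit at both time points, and *jak3* rose by 0.79 at 7 dpt and 2.28 at 7 mpt.

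The levels fell into CPM ranges that did not overlap between the groups for 6 of the 8 members at 7 dpt, of which 5 were higher in *il11a*OE. In all genes 52.6% did not overlap at this time point, 28.2% with *il11a*OE higher and 24.3% lower. At 7 mpt the groups were apart for 4 members, all higher in *il11a*OE, against 30.8% of all genes, 17% with *il11a*OE higher and 13.8% lower. These 4 were the members that also passed the test.

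Markers of several cell types moved with the members. At 7 dpt, 2 of 4 epicardial markers were higher and 1 lower (summed level 216 to 377 CPM against 73.6 to 95.4 in controls), and 1 of 5 fibroblast markers was higher (538 to 667 CPM against 399 to 536). At 7 mpt, 2 of 4 epicardial markers (604 to 817 CPM against 193 to 370) and 5 of 5 fibroblast markers (2280 to 4332 CPM against 461 to 769) were higher. Endothelial markers were lower, 2 of 3 at 7 dpt and 3 of 3 at 7 mpt. Of 4 smooth muscle markers, 1 was higher at 7 dpt and 0 were called at 7 mpt. Erythroid markers were lower in 3 of 3 genes at 7 dpt (summed level 836 to 1323 CPM against 1675 to 3846 in controls) and were not called at 7 mpt (859 to 4186 CPM against 916 to 2872). Of the liver markers, 1 of 2 tested was lower at 7 dpt. The sum of all 4 was 30.4 to 49.0 CPM there, against 28.4 to 32.8 in controls. At 7 mpt 1 of 3 tested was higher, and the median log2 fold change of the 3 was -0.71. The sum of all 4 was then 829 to 2481 CPM against 17.7 to 113 in controls. The part of these cell types in the JAK and STAT results was not tested.

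**Figure D2:**
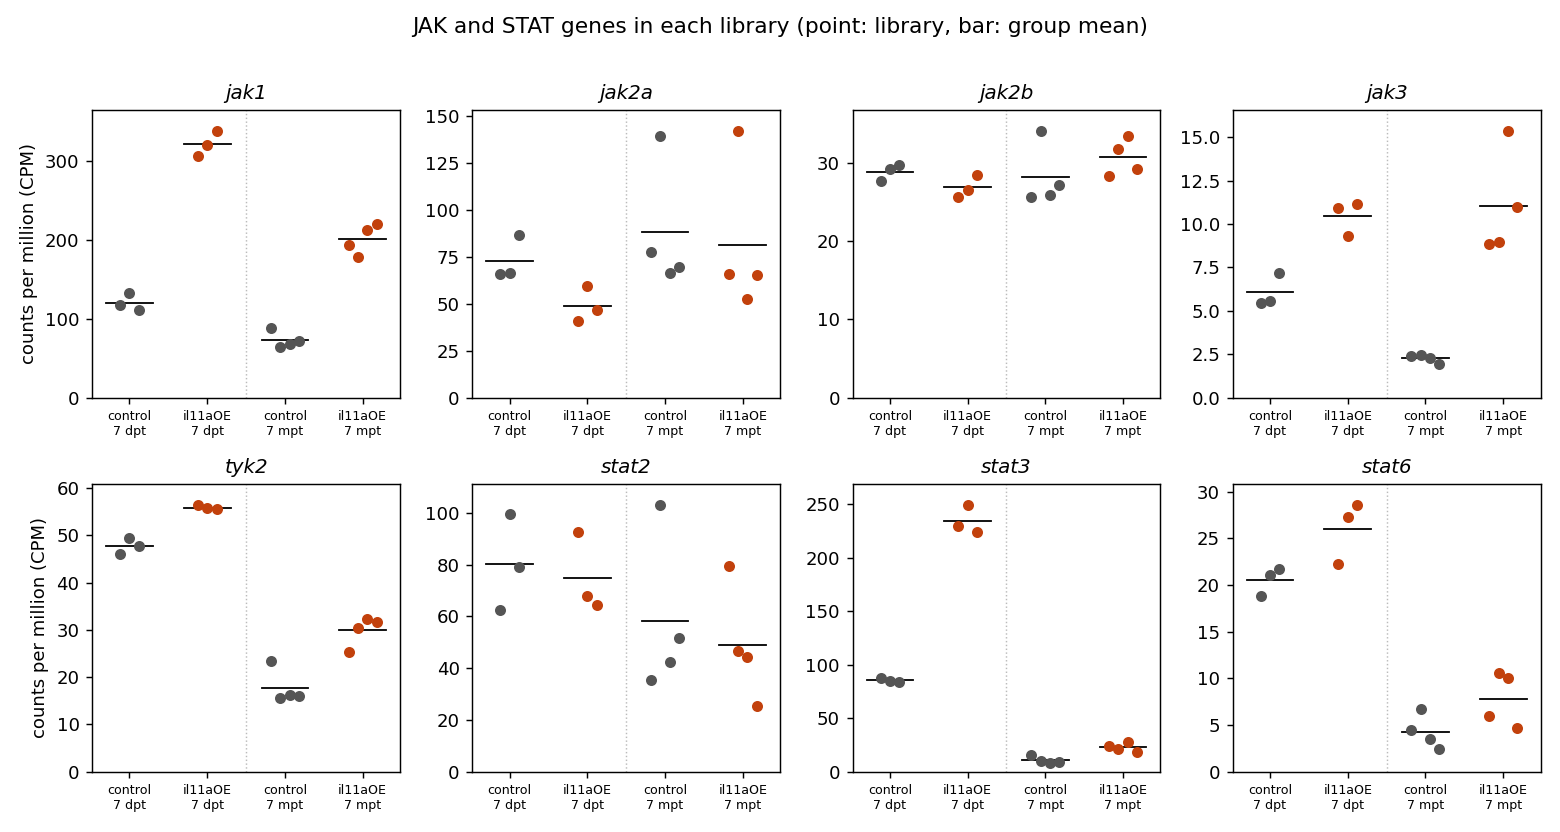
CPM of each JAK and STAT gene by library (7 dpt, 3 a group, and 7 mpt, 4 a group), points for libraries and a bar for the group mean. Each y axis starts at 0 and has its own scale, and the dotted line separates the time points, which were counted in different ways. The *il11a*OE points lie above the control points at both time points for *jak1*, *jak3*, *tyk2* and *stat3*.

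Among the kinases, *jak1* changed most firmly. The gene *jak1* (ENSDARG00000020625, GRCz11 chr6:31368071-31429161) encodes a kinase that most cytokine receptors use, Il6st included. Its levels in the 3 controls at 7 dpt were 118, 133 and 111 CPM, and in *il11a*OE 306, 321 and 338 CPM. The 4 controls at 7 mpt stood at 88.1, 64.6, 67.7 and 72.2 CPM and *il11a*OE at 194, 178, 212 and 221 CPM. Every *il11a*OE library thus exceeded every control of its time point by a wide margin. The rise was 1.42 ± 0.10 on the log2 scale at 7 dpt (2.67-fold, adjusted p = 0.000167, edgeR) and 1.46 ± 0.14 at 7 mpt (2.75-fold, adjusted p = 0.000134). The difference between these effects was 0.03, with a 95% confidence interval of -0.36 to 0.42.

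The kinase gene *jak3* (ENSDARG00000010252, chr8:13389115-13412597) had the lowest mean level per exon length of the 5 kinases in every group, and its effect differed most between the time points. Its controls held 5.42, 5.58 and 7.21 CPM at 7 dpt and *il11a*OE held 10.9, 9.3 and 11 CPM. Controls at 7 mpt held 2.39, 2.45, 2.29 and 1.95 CPM and *il11a*OE held 8.86, 8.96, 15.4 and 11 CPM. The 4 controls at 7 mpt lay close together, while replicate 3 of *il11a*OE was the highest library. The rise was 0.79 ± 0.15 at 7 dpt (1.72-fold, adjusted p = 0.00689, edgeR) and 2.28 ± 0.22 at 7 mpt (4.85-fold, adjusted p = 0.000143), the 1 member past 4-fold at either time point (5.46% of genes at 7 dpt and 8.5% at 7 mpt passed the test and 4-fold). In the contrast of the effects, fitted over all 14 libraries, *jak3* rose by 1.49 ± 0.29 more at 7 mpt (adjusted p = 0.0134), and it was the 1 member called there. Of 21317 genes, 4.41% were called in this contrast, 2.14% with the higher log2 effect at 7 mpt. Age, treatment interval, any difference in the tissue taken and any separate handling of the time points cannot be told apart in it.

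Genes of leukocytes, in which mammalian JAK3 is mostly found, moved with *jak3*. All 10 leukocyte markers tested at 7 dpt were higher (median log2 fold change 1.87), and 8 of 11 were at 7 mpt (median 3.17). Their summed level rose from 59.9 to 90.0 CPM in controls to 272 to 324 CPM in *il11a*OE at 7 dpt, and from 71.5 to 117 CPM to 440 to 702 CPM at 7 mpt. None of the 11 markers was at 0 in all libraries of a group. Set against this sum, *jak3* came to 7.93% ± 1.71 (SD, n = 3) in controls and 3.55% ± 0.44 in *il11a*OE at 7 dpt, and to 2.31% ± 0.29 (SD, n = 4) and 1.96% ± 0.19 at 7 mpt. The *jak3* level therefore rose less than the leukocyte sum did at 7 dpt and by nearly the same factor at 7 mpt. For *jak1* this ratio went from 161% ± 52.8 to 109% ± 4.08 at 7 dpt and from 75.9% ± 20.7 to 36.6% ± 4.53 at 7 mpt. For *stat3* it went from 112% ± 25.0 to 79.4% ± 8.80 and from 10.9% ± 3.35 to 4.18% ± 0.85. Of these 3 genes, *jak3* followed the leukocyte sum least closely at 7 dpt and most closely at 7 mpt. The part of leukocyte number in the *jak3* result was not tested.

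Of 4 receptor chain genes set beside *jak3*, *il2rga* and *il7r* rose at both time points, *il2rb* was called at 7 mpt and *il2rgb* at neither. The common gamma chain gene *il2rga* went from 2.25 ± 0.41 (SD, n = 3) to 6.62 ± 0.91 CPM at 7 dpt (log2 fold change 1.55 ± 0.18, adjusted p = 0.00122, edgeR) and from 0.0838 ± 0.0671 (n = 4) to 1.5 ± 0.85 CPM at 7 mpt (4.15 ± 0.89, adjusted p = 0.00735). The interleukin 7 receptor gene *il7r* rose by 1.1 ± 0.27 and 2.46 ± 0.55. The gene *il2rb*, a chain of the IL-2 and IL-15 receptors, was not called at 7 dpt (0.58, adjusted p = 0.0722) and rose by 3.59 ± 0.56 at 7 mpt (adjusted p = 0.00145). Its effect was 3.00 ± 0.55 larger at 7 mpt (adjusted p = 0.00916). The other copy of the common gamma chain gene, *il2rgb*, held 0.919 to 2.39 CPM in controls and 0.720 to 1.86 CPM in *il11a*OE at 7 dpt (log2 fold change -0.20, adjusted p = 0.780), and 0.149 to 0.986 CPM and 0.787 to 1.63 CPM at 7 mpt (1.06, adjusted p = 0.192). All 4 chains were below 2 CPM on average at 7 mpt.

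**Figure D3:**
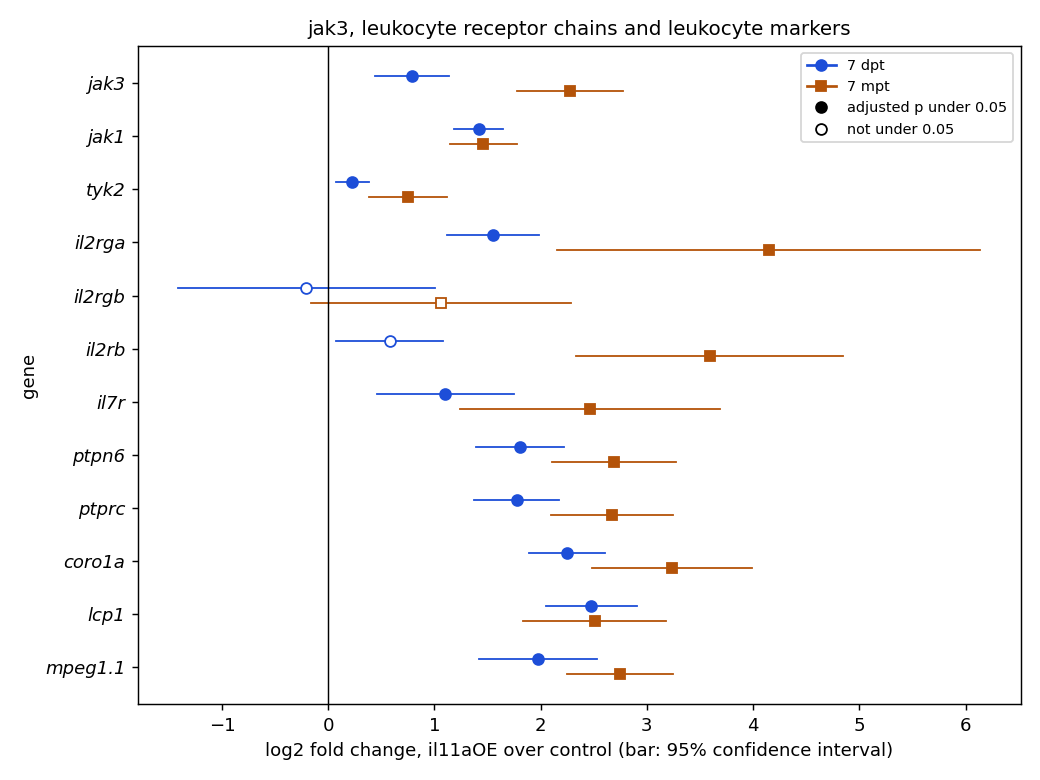
Log2 fold change of *il11a*OE over control with 95% confidence intervals (edgeR) for *jak3*, *jak1*, *tyk2*, 4 receptor chains, the leukocyte phosphatase gene *ptpn6* and 4 leukocyte markers at 7 dpt and 7 mpt. The *jak3* point at 7 mpt (2.28) lies beside those of *ptprc*, *lcp1* and *mpeg1.1*, while at 7 dpt (0.79) it lies below them. The 4 markers shown are part of a list of 11, whose median was 1.87 at 7 dpt (10 tested) and 3.17 at 7 mpt.

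The gene *tyk2* (ENSDARG00000020326, chr3:46479705-46555542) encodes a kinase of interferon and gp130-type receptors. Its controls at 7 dpt held 46.0, 49.5 and 47.7 CPM and *il11a*OE held 56.3, 55.7 and 55.6 CPM. The levels at 7 mpt were 23.3, 15.6, 16.1 and 16.0 CPM in controls and 25.3, 30.5, 32.4 and 31.8 CPM in *il11a*OE. The groups were apart at both time points, by a narrow margin at 7 mpt because of control replicate 1. The rise was 0.23 ± 0.07 at 7 dpt (1.17-fold, adjusted p = 0.0339, edgeR) and 0.76 ± 0.16 at 7 mpt (1.69-fold, adjusted p = 0.00776). The call at 7 dpt was lost in all 6 fits that left out a library (adjusted p of 0.0563 to 0.0867) and that at 7 mpt in none of 8. The difference between the effects, 0.52 ± 0.20, did not pass (adjusted p = 0.160), but did without control replicate 1 at 7 mpt (0.71, adjusted p = 0.0117).

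Neither copy of JAK2, which serves gp130, growth hormone and blood cell receptors, was called higher. The gene *jak2a* (ENSDARG00000104808, chr21:249970-294747) stood at 65.9, 66.5 and 86.3 CPM in controls and 40.9, 59.3 and 46.7 CPM in *il11a*OE at 7 dpt. It fell by 0.57 on the log2 scale (SE 0.17, adjusted p = 0.0382, edgeR), and 5 of the 6 fits without a library lost this call (adjusted p of 0.0194 to 0.123 over the 6, the lowest without *il11a*OE replicate 2). The erythroid markers were lower too, with a median log2 fold change of -1.43. Within each group their sum and *jak2a* were highest in the same library (control replicate 3 and *il11a*OE replicate 2). The remaining libraries matched less well. Control replicates 1 and 2 had erythroid sums of 1675 and 2856 CPM at nearly equal *jak2a*. In *il11a*OE, replicate 3 had the lowest sum (836 CPM) but not the lowest *jak2a*. At 7 mpt *jak2a* was at 77.7, 139, 66.3 and 69.3 CPM in controls and 65.6, 142, 52.7 and 65.4 CPM in *il11a*OE. Replicate 2 of each group was far above the rest, and the log2 fold change was -0.11 (95% confidence interval -0.90 to 0.67, adjusted p = 0.858). Without control replicate 2 it was 0.19, and without *il11a*OE replicate 2 it was -0.52 (adjusted p = 0.212, edgeR). The same libraries held the most erythroid marker RNA, 2872 CPM against 916 to 1715 in the other controls and 4186 CPM against 859 to 1827 in the other *il11a*OE libraries. Control replicate 2 was also the highest control at 7 mpt for *jak2b*, *jak3*, *stat2* and *stat6*. The part of erythroid cells in the *jak2a* values was not tested.

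The other copy, *jak2b* (ENSDARG00000018882, chr5:66043820-66121852), varied little. It held 27.7, 29.2 and 29.7 CPM in controls and 25.6, 26.6 and 28.4 CPM in *il11a*OE at 7 dpt. At 7 mpt it held 25.7, 34.1, 25.9 and 27.1 CPM in controls and 28.4, 31.8, 33.5 and 29.3 CPM in *il11a*OE. The groups overlapped at both time points, and the 95% confidence intervals of the log2 fold change were -0.28 to 0.07 at 7 dpt and -0.17 to 0.42 at 7 mpt.

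Per length of exon, *jak2a* was the more abundant copy in all 14 libraries. In log2 of *jak2b* over *jak2a*, the controls at 7 dpt had -2.03, -1.97 and -2.32 and *il11a*OE had -1.46, -1.94 and -1.50. The mean ratio was thus 0.48 log2 units higher in *il11a*OE, with no overlap (exact two-sided permutation test, p = 0.1, the smallest that 3 against 3 allows; 0.2 after adjustment over the 2 ratio tests). The difference at 7 mpt was 0.29 and the groups overlapped (exact p = 0.371, adjusted 0.371). With 4 against 4 the smallest p is 0.0286, which the adjustment also keeps above 0.05.

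**Figure D4:**
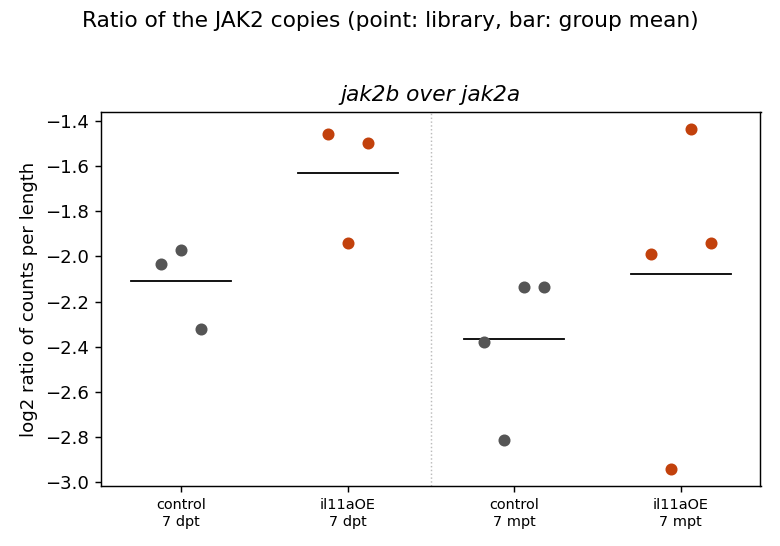
Log2 ratio of the counts per exon length of *jak2b* over *jak2a* in each library, with a bar for the group mean. The ratio lies higher in *il11a*OE than in control at 7 dpt (-1.94 to -1.46 against -2.32 to -1.97), and the groups overlap at 7 mpt.

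In the STAT family, *stat3* led at 7 dpt. The gene *stat3* (ENSDARG00000022712, chr3:17030665-17107445) encodes the main STAT of the gp130 cytokines. Its controls at 7 dpt held 88.0, 84.4 and 83.5 CPM and *il11a*OE held 229, 249 and 224 CPM. Later, at 7 mpt, the controls held 15.5, 10.5, 7.96 and 8.92 CPM and *il11a*OE held 24.4, 20.9, 27.8 and 18.6 CPM. Both time points showed *il11a*OE above control with no overlap. The rise was 1.46 ± 0.08 at 7 dpt (2.74-fold, adjusted p = 8.46e-05, edgeR) and 1.09 ± 0.23 at 7 mpt (2.13-fold, adjusted p = 0.00610). The difference between the effects was -0.37 (95% confidence interval -0.98 to 0.24, adjusted p = 0.508).

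The genes most like *stat3* across libraries were *ptprua*, *irf8*, *junba*, *il6st* and *bcl3*. Likeness was the smaller of the Pearson correlations with *stat3* over the 6 libraries of 7 dpt and the 8 of 7 mpt, on log2 CPM, among 8675 genes with a mean of at least 5 CPM at both. It was 0.982 for *ptprua*, a receptor-type tyrosine phosphatase, 0.974 for *irf8*, a transcription factor of macrophages, and 0.973 for *junba*, an AP-1 subunit. It was 0.971 for *il6st*, the gp130 chain itself, and 0.970 for *bcl3*, a regulator of NF-κB. As the libraries fall into control and *il11a*OE groups, these values largely describe the step between the groups. Among the other members, *jak1* ranked 135, *tyk2* 139 and *jak3* 202.

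The gene *stat2* (ENSDARG00000031647, chr6:39123544-39160422), a transcription factor of type I interferon signalling, was not called at either time point. It held 62.4, 99.6 and 79.3 CPM in controls and 92.7, 67.9 and 64.4 CPM in *il11a*OE at 7 dpt. At 7 mpt it held 35.4, 103, 42.5 and 51.7 CPM in controls and 79.6, 46.6, 44.2 and 25.3 CPM in *il11a*OE. The groups overlapped at both, with log2 fold changes of -0.10 (95% confidence interval -0.61 to 0.40) and -0.25 (-1.16 to 0.67). Without control replicate 2 at 7 mpt the value was 0.18, and without *il11a*OE replicate 1 it was -0.60 (adjusted p = 0.342, edgeR). The libraries of a group were thus uneven, with control replicate 2 and *il11a*OE replicate 1 highest in their groups at 7 mpt.

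Some interferon-response genes were also uneven across the controls. In control replicate 2 at 7 mpt, *isg15* stood at 10.6 CPM against 2.48 to 4.10 in the other controls, and *rsad2* at 16.6 CPM against 3.03 to 3.42. In that library *psmb9a*, an immunoproteasome subunit gene, was at 5.59 CPM, close to the 2.91 to 5.28 of the others, while all 4 *il11a*OE libraries held 16.3 to 26.2 CPM. So *psmb9a* separated *il11a*OE from control, and *isg15* and *rsad2* did not (log2 fold change 0.22, adjusted p = 0.788, and -0.14, adjusted p = 0.920, edgeR). The genes *isg15* and *rsad2*, both induced by type I interferon, were picked for this paragraph after their values were seen.

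**Figure D5:**
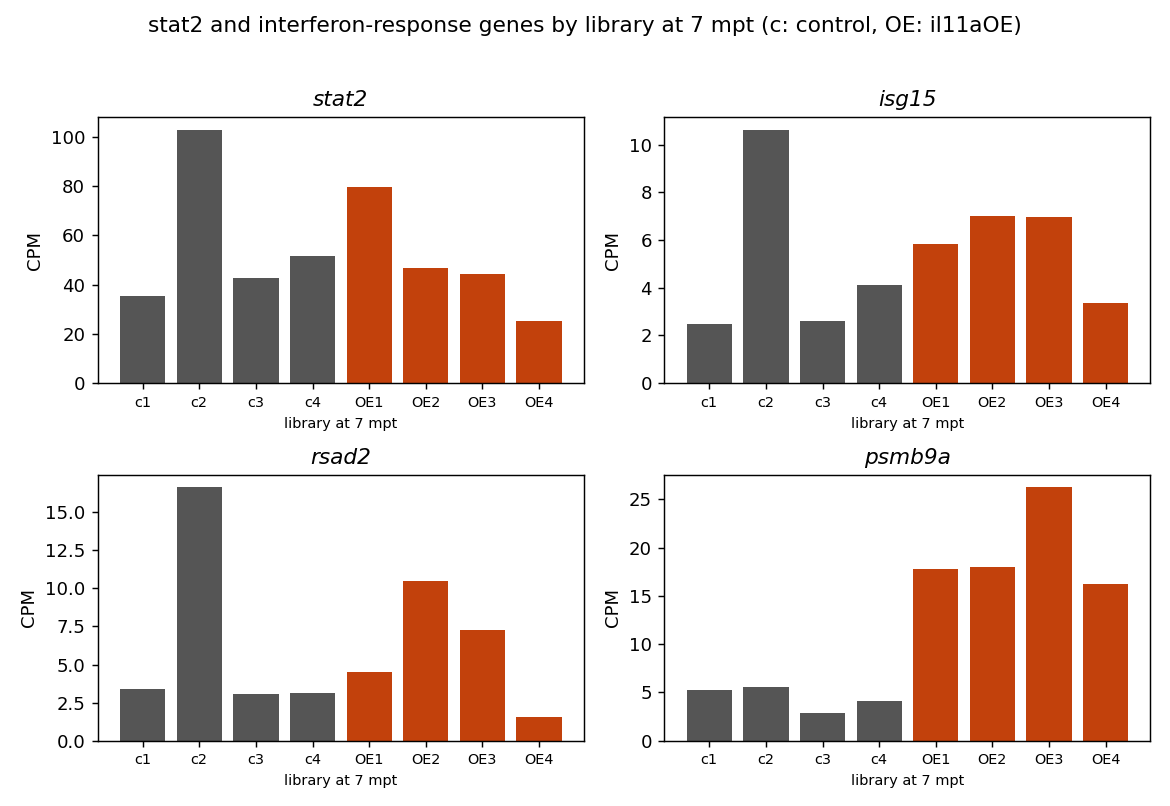
CPM at 7 mpt in each of the 4 control (c1 to c4) and 4 *il11a*OE (OE1 to OE4) libraries for *stat2*, *isg15*, *rsad2* and *psmb9a*, each bar 1 library. Control 2 is the highest library for *stat2* (103), *isg15* (10.6) and *rsad2* (16.6), while *psmb9a* is higher in every *il11a*OE library than in any control.

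The gene *stat6* (ENSDARG00000015902, chr23:27078866-27123180) held 18.9, 21.1 and 21.7 CPM in controls and 22.2, 27.3 and 28.5 CPM in *il11a*OE at 7 dpt. At 7 mpt it held 4.48, 6.68, 3.51 and 2.43 CPM in controls and 5.94, 10.6, 10.1 and 4.70 CPM in *il11a*OE. The groups were just apart at 7 dpt and overlapped at 7 mpt. The log2 fold changes of 0.34 ± 0.11 (adjusted p = 0.0581, edgeR) and 0.87 ± 0.36 (adjusted p = 0.108) missed the threshold, and passed it without *il11a*OE replicate 1 at 7 dpt (adjusted p = 0.0245) and without control replicate 2 at 7 mpt (0.0418). A receptor gene it works with, *il4r.1*, rose at both time points (1.83 ± 0.15, adjusted p = 0.000317, and 1.89 ± 0.47, adjusted p = 0.0150).

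Per length, the make-up of the kinase family differed between the groups. The 5 kinases summed to 44.7 ± 2.22 CPM per kb (SD, n = 3) in controls and 71.4 ± 3.52 in *il11a*OE at 7 dpt, and to 36.2 ± 7.38 (n = 4) and 58.0 ± 6.55 at 7 mpt. Of that sum, *jak1* made up 40.3% ± 4.26 in controls and 67.1% ± 1.58 in *il11a*OE at 7 dpt, and 31.0% ± 6.95 and 52.3% ± 8.64 at 7 mpt. The share of *jak2a* went the other way, from 35.2% ± 4.33 to 14.8% ± 2.40 at 7 dpt and from 51.4% ± 8.91 to 29.5% ± 11 at 7 mpt. On average *jak2a* was thus the leading kinase transcript per length in controls at 7 mpt, and *jak1* was in *il11a*OE at both time points, except in *il11a*OE replicate 2 at 7 mpt, where *jak2a* led with 45.6% against 39.4%. Shares of a sum are not independent, and a rise of *jak1* lowers the others.

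Among *stat2*, *stat3* and *stat6*, the summed level was 42.6 ± 2.61 CPM per kb (SD, n = 3) in controls and 86.4 ± 3.69 in *il11a*OE at 7 dpt. At 7 mpt the sums were 13.1 ± 4.95 (n = 4) and 16.2 ± 4.27, and they overlapped. Of the sum at 7 dpt, *stat3* made up 58.4% ± 4.86 in controls and 78.7% ± 1.75 in *il11a*OE, the largest share of the 3 genes in every library. At 7 mpt *stat2* led these 3 genes in controls, with 65.3% ± 12 against 25.7% ± 10.8 for *stat3*. In *il11a*OE the shares were 44.2% ± 9.79 and 42.4% ± 7.77. The sum leaves out *stat4*, which held 11.7 to 16.3 CPM per kb in these controls, against 5.36 to 15.5 for *stat2*. It exceeded *stat2* in every one of these controls but replicate 2. The smaller *stat3* share at 7 mpt is already present in controls. Libraries of the time points also differ in how reads were counted. At 7 mpt 99.1 to 99.4% of nonzero counts were even, and a doubling of every count by itself leaves a share unchanged. Age, treatment interval, any difference in the tissue taken and any separate handling of the libraries of each time point cannot be told apart here.

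The receptors, inhibitors and targets around these genes give the setting. Their counts can be read against the shares of all genes given above. Of 26 receptor chains tested at 7 dpt, 10 were higher and 4 lower (median log2 fold change 0.04), and of 24 at 7 mpt, 12 were higher and 3 lower (median 1.16). The gp130 gene *il6st* rose from 137 ± 2.61 to 383 ± 23.8 CPM at 7 dpt (1.48 ± 0.08, adjusted p = 8.46e-05, edgeR) and from 56.6 ± 13.1 to 154 ± 14.5 CPM at 7 mpt (1.45 ± 0.17, adjusted p = 0.000337). The chains with the smallest p besides *il6st* were *csf3r*, the G-CSF receptor (2.95 ± 0.18), and *il4r.1* at 7 dpt, and *lifrb*, a LIF receptor (4.43 ± 0.28), and *il10ra*, an IL-10 receptor chain (2.40 ± 0.28), at 7 mpt. The Il11 receptor gene *il11ra*, named outside the naming rule as the receptor of the overexpressed ligand, fell by 0.71 at 7 dpt (adjusted p = 0.0318), and at 7 mpt its log2 fold change was -0.35 (adjusted p = 0.427). Thus the shared signalling chain rose at both time points and the alpha receptor was called higher at neither.

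The inhibitors with the smallest p were both copies of SOCS3, which in mammals binds gp130 and JAKs, and the leukocyte phosphatase gene *ptpn6*. Of 24 inhibitors tested at 7 dpt, 7 were higher and 2 lower (median log2 fold change 0.13), and of 21 at 7 mpt, 4 were higher and 0 lower (median 0.17). At 7 mpt 0 were lower at an unadjusted p under 0.05 too, where 3185 of 18689 genes were. The copy *socs3b* rose from 14.7 ± 1.32 to 224 ± 43.2 CPM at 7 dpt (3.93 ± 0.18, adjusted p = 5.71e-05, edgeR) and from 30.6 ± 21.2 to 324 ± 85.1 CPM at 7 mpt (3.41 ± 0.46, adjusted p = 0.000792). The copy *socs3a*, already at 81.1 ± 16.9 and 287 ± 153 CPM in controls, reached 576 ± 99 and 1074 ± 223 CPM (2.83 ± 0.20 and 1.90 ± 0.40). Both copies rose by more than any of the 8 members did at 7 dpt. The gene *ptpn6* rose by 1.81 ± 0.17 and 2.69 ± 0.26, and it had the smallest p of the inhibitors at 7 mpt, ahead of *socs3b* and *socs3a*.

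Known STAT3 targets moved both ways. Of 16 tested, 9 were higher and 3 lower at 7 dpt (median log2 fold change 0.55), and 6 were higher and 2 lower at 7 mpt (median 0.63). Leading at 7 dpt were *birc5a*, which encodes survivin and is also a cell division gene (4.37 ± 0.22), *junba* (3.14 ± 0.23) and *bcl3* (2.85 ± 0.25). At 7 mpt they were *cebpb*, a factor of the acute phase response (2.66 ± 0.24), *junba* (3.22 ± 0.52) and *junbb* (1.66 ± 0.37). Proliferation markers, which *birc5a* goes with, were also higher at 7 dpt in 4 of 4 genes (summed level 274 to 344 CPM against 30.6 to 32.8 in controls), and the part of dividing cells in the *birc5a* value was not tested.

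Of 11 interferon-response genes tested, 5 were higher and 0 lower at 7 dpt (median log2 fold change 1.24), and 6 were higher and 0 lower at 7 mpt (median 1.2). None was lower at an unadjusted p under 0.05 at either time point, where 4375 of 19647 genes were at 7 dpt and 3185 of 18689 at 7 mpt. Leading at 7 dpt were *irf9*, the partner of STAT2 (1.44 ± 0.09), *gbp2*, a guanylate-binding protein gene (1.85 ± 0.12), and *psmb9a* (1.83 ± 0.20). At 7 mpt they were *psmb9a* (2.13 ± 0.24), *mxc*, an antiviral Mx gene that averaged only 0.0594 CPM in controls (4.74 ± 0.68), and *irf9* (1.2 ± 0.19). Of 3 further STAT genes, *stat4*, *stat5a* and *stat5b*, none was called higher. The gene *stat5a* fell by 0.37 at 7 dpt (adjusted p = 0.0240), and *stat4* fell by 0.93 at 7 mpt, from 73.6 to 102 CPM in controls to 31.9 to 57.0 CPM in *il11a*OE (adjusted p = 0.00533).

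The labels of the 7 mpt libraries carry the letters F and M, with 2 of each per group. No member differed between the letters (0 of 8, edgeR). Before adjustment 1 did, *jak2a*, with a log2 difference of M against F of -0.75 (adjusted p = 0.340). Over all 18689 genes tested, 1089 were higher and 1079 lower in M at an unadjusted p under 0.05. After adjustment DESeq2 and limma-voom gave 0 members too, and 0.0107% of all genes differed. Within the letters, *il11a*OE exceeded control with no overlap for *jak1* (1.30 in F and 1.63 in M, log2 scale), *jak3* (1.88 and 2.62), *tyk2* (0.54 and 1.00) and *stat3* (0.82 and 1.43). The groups of these 4 genes were already apart over all libraries of 7 mpt. Their separation within each letter was thus fixed in advance and adds no support. In M alone, the 2 libraries per group were also apart for *jak2a* (-0.21), *jak2b* (0.24) and *stat6* (1.24). None of these genes was called at 7 mpt (adjusted p = 0.858, 0.556 and 0.108, edgeR). With 2 libraries against 2, such a separation often arises by chance, and its share over all genes was not counted. It is therefore not read as a response particular to M.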

How the data were processed

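Groups of the uninjured heart libraries came from the sample labels (genotype and time point), 3 libraries each at 7 dpt and 4 each at 7 mpt. The study describes biological replicate pools, 3 per group, and which of the 7 mpt libraries they were is not given in the sources used here. The authors trimmed adaptors with Cutadapt, aligned reads to GRCz11 with HISAT2 and counted them on Ensembl exons with featureCounts, without strand. The featureCounts version 2.0.0 was read from the 7 dpt counts and the Ensembl release 104 from the 7 mpt counts. The files hold the deposited raw counts of each gene, of read pairs at 7 dpt and of single mates at 7 mpt, which raises counts without adding molecules. Reads from near-identical copies are lost or split under such counting, which may touch the *jak2a* and *jak2b* pair.

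From these counts, genes were filtered with filterByExpr, scaled with TMM and tested within each time point by the quasi-likelihood F-test of edgeR 4.0.16 (robust fit, R 4.3.3). DESeq2 1.42.0 and limma 3.58.1 served as alternatives. The difference of effects was a contrast over 14 libraries, and the letter a term over 8. CPM used the scaled library sizes. Paralog ratios were compared with exact permutation tests (SciPy 1.17.1), adjusted over 2. Benjamini-Hochberg adjustment was used, and the threshold was 0.05. The fits were also run on simulated counts with known changes. Those counts had the same dispersion for every gene and no doubling, so they do not show how the fits perform on these data. Alternatives covered normalization, tool, filter, dispersion, samples in the fit, a replicate block, halved counts, the letter and each library left out.

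Genes named are all members, the 3 genes with the smallest p of each pathway list and time point, genes set beside a member, *il11a* and the 5 genes most like *stat3*. The members and lists were chosen with earlier results of these data known, and they are described without a test of the list. Of the listed symbols, 26 of 27 receptors and 25 of 26 inhibitors matched. No library was a duplicate of another in its group (chi-square over degrees of freedom between 52.9 and 370.1). Sequences of the genes were not analysed here, and some genes of these families are not reported here.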

Additional observations from a re-analysis of the deposited data

Results flagged for a closer look

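In groups of 4 libraries, 3 values lay far from the rest of their group at 7 mpt, out of 16 groups examined, where chance alone gives about 1. The gene *jak2a* was at 139 CPM in control replicate 2, against 66.3 to 77.7 CPM in the other controls, and at 142 CPM in *il11a*OE replicate 2, against 52.7 to 65.6 CPM. The gene *tyk2* was at 23.3 CPM in control replicate 1, against 15.6 to 16.1 CPM. The rise of *jak3* differed between the time points, by 1.49 on the log2 scale (adjusted p = 0.0134, edgeR), and it kept its call in all 8 other settings (adjusted p of 9.08e-05 to 0.0430) and in all 14 fits without a library (0.0110 to 0.0488).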

How the results depend on the processing

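The calls of *jak1*, *jak3* and *stat3* at both time points, of *tyk2* at 7 mpt and of the *jak3* difference held under every alternative run. At 7 dpt, 4 members were higher and 1 lower. With all 14 libraries in 1 fit, 3 were higher and 0 lower (*jak1*, *jak3* and *stat3*), and with the replicate block 4 were higher (*stat6* in, *tyk2* out) and 0 lower. DESeq2 size factors, and a filter of 1 count in any library, gave 3 higher (*tyk2* out). Without single libraries, 3 to 4 were higher and 0 to 1 lower. At 7 mpt, 4 members were higher and 4 to 5 were without single libraries, the highest without control replicate 2, which added *stat6*. The other settings gave 4 to 5, the replicate block 5 (*stat6* in). The difference between time points was called in 1 member and in 1 to 2 without single libraries. Values near 0 changed sign when libraries were left out: *stat2* ran from -0.27 to 0.078 at 7 dpt and from -0.60 to 0.18 at 7 mpt, *jak2a* from -0.52 to 0.19 at 7 mpt, and the differences between time points from -0.011 to 0.16 for *jak1* and from -0.50 to 0.30 for *stat2*. The cause of these changes was not tested. Same-numbered libraries did not deviate together in every pair (correlations of 0.01, -0.03 and 0.14 at 7 dpt and 0.00, 0.08, 0.12 and 0.11 at 7 mpt). At 7 mpt they also carry the same letter. Control and *il11a*OE libraries of different number but the same letter gave 0.20 and 0.13 in F and 0.19 and 0.02 in M. Those of different letters gave -0.23 to -0.04. The cause of these correlations was not tested. Both tests of the *jak2b* to *jak2a* ratio stayed above 0.05 after adjustment under every alternative run. That outcome was fixed in advance and draws no conclusion. The smallest p the exact permutation test allows is 0.1 at 7 dpt and 0.0286 at 7 mpt, and adjustment over the 2 tests keeps both above 0.05.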
